A study of Mus musculus with 12 samples.

Results

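The 10 serotonin receptor genes described here are Htr1a, Htr1b, Htr1d, Htr1f, Htr2a, Htr2c, Htr3a, Htr4, Htr5a and Htr7, taken by symbol from a count table of 55421 mouse genes. All 10 passed the filter on low counts that left 20015 genes for testing. None was too low to measure by the rule used, a mean under 0.5 CPM over the 12 libraries. CPM are counts scaled to library size. The lowest was Htr1d, with 3 to 25 counts in the prelimbic libraries described below and 13 to 72 in the infralimbic ones. With only the prelimbic groups fitted, Htr1d did not pass the filter. The study asked about dexmedetomidine, a sedative that activates alpha-2 adrenergic receptors, given after auditory fear conditioning. Male wild-type C57BL/6 mice, aged 10 to 12 weeks, were trained with 3 pairings of a tone and a 0.7 mA foot shock. They then received dexmedetomidine at 40 µg per kg intraperitoneally (10 ml per kg; Dex) or the same volume of saline. Polyadenylated RNA came from brain tissue taken 2 h after training, labelled as prelimbic (PL) or infralimbic (IL) prefrontal cortex, with 3 libraries for each region and treatment. All groups were fear conditioned, and no untrained group was analysed here. The extraction protocol names prelimbic tissue for every sample although 6 titles name IL, and the titles were followed. Whether each sample was a separate mouse is not stated, and p-values therefore cover only the spread among these samples.

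Serotonin reaches the prefrontal cortex through axons of the raphe nuclei and acts on a family of receptors that differ in how they signal. The Htr1 and Htr5 receptors couple to Gi/o proteins and lower cyclic AMP, the Htr2 receptors couple to Gq/11 and activate phospholipase C, and Htr4 and Htr7 couple to Gs and raise cyclic AMP. Htr3a encodes a subunit of a cation channel opened directly by serotonin. In cortex, Htr2a is known as the main excitatory serotonin receptor of pyramidal neurons, while Htr2c is abundant in several subcortical regions, the striatum among them.

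Libraries held 5419187 to 16530596 gene counts. The first principal component, which carried 35.8% of the variance, placed all 6 IL libraries between -38.4 and -29.3 and the PL libraries between 17.9 and 48.8, with PL saline 1, PL Dex 1 and PL Dex 2 nearest to IL at 19.6, 22.5 and 17.9. Markers of cortical excitatory neurons were present in every library, at summed levels of 3545 to 4422 CPM in PL and 2724 to 3605 CPM in IL. The tissue labels also met striatal markers: the summed level of 9 genes of striatal medium spiny neurons was 1266 to 1986 CPM in IL and 291 to 880 CPM in PL. A list of 8 septal and olfactory forebrain genes summed to 246 to 400 CPM in IL and 93.6 to 150 CPM in PL. A list of 8 choroid plexus genes summed to 14.4 to 25.1 CPM in IL and 6.12 to 13.5 CPM in PL. PL saline 1 was the highest PL library for each of these lists. Their part in the regional differences described here was not tested. In bulk tissue, fewer cells of a type and less RNA per cell cannot be told apart.

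Per gene length, the family was led by different members in the 2 regions. In PL saline, Htr2a stood first at 16.8 ± 3.33 RPKM, which are counts scaled to library size and gene length (mean ± SD, n = 3), and its lowest library lay above the highest library of the gene in second place, Htr2c at 5.11 ± 2.17 RPKM. The next genes in that order, Htr1f, Htr1b, Htr1a and Htr5a, had means of 4.63 to 4.26 RPKM, and each overlapped its neighbour. In PL Dex, Htr2a again led at 13.2 ± 4.21 RPKM, and Htr5a, Htr1a and Htr1b followed at 4.80 to 4.58 RPKM with overlapping libraries. In IL, Htr2c was first at 10.0 ± 1.86 RPKM after saline and 11.4 ± 2.55 RPKM after Dex. Htr2a was second there at 6.96 ± 1.32 and 8.00 ± 0.914 RPKM, with libraries that overlapped those of Htr2c. Htr1d had the lowest mean in all 4 groups, at 0.342 to 1.34 RPKM. Htr7, Htr3a and Htr4 held the 3 places above it in every group, with means of 0.937 to 2.18 RPKM.

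As a share of the summed RPKM of the 10 genes, Htr2a took 37.1% ± 7.66 in PL saline and 34.0% ± 5.67 in PL Dex, against 17.2% ± 2.15 in IL saline and 18.5% ± 0.477 in IL Dex (n = 3 each). Htr2c took 11.2% ± 4.62 and 8.73% ± 1.80 in the PL groups and 24.8% ± 2.79 and 26.2% ± 3.68 in the IL groups. The ratio of Htr2a to Htr2c in RPKM was 1.71, 4.58 and 5.12 in the PL saline libraries and 3.88, 2.70 and 5.74 in the PL Dex libraries. In the 6 IL libraries it lay between 0.648 and 0.815. The ratio was therefore above 1 in each PL library and below 1 in each IL library, and the lowest PL value belonged to PL saline 1.

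**Figure D1:**
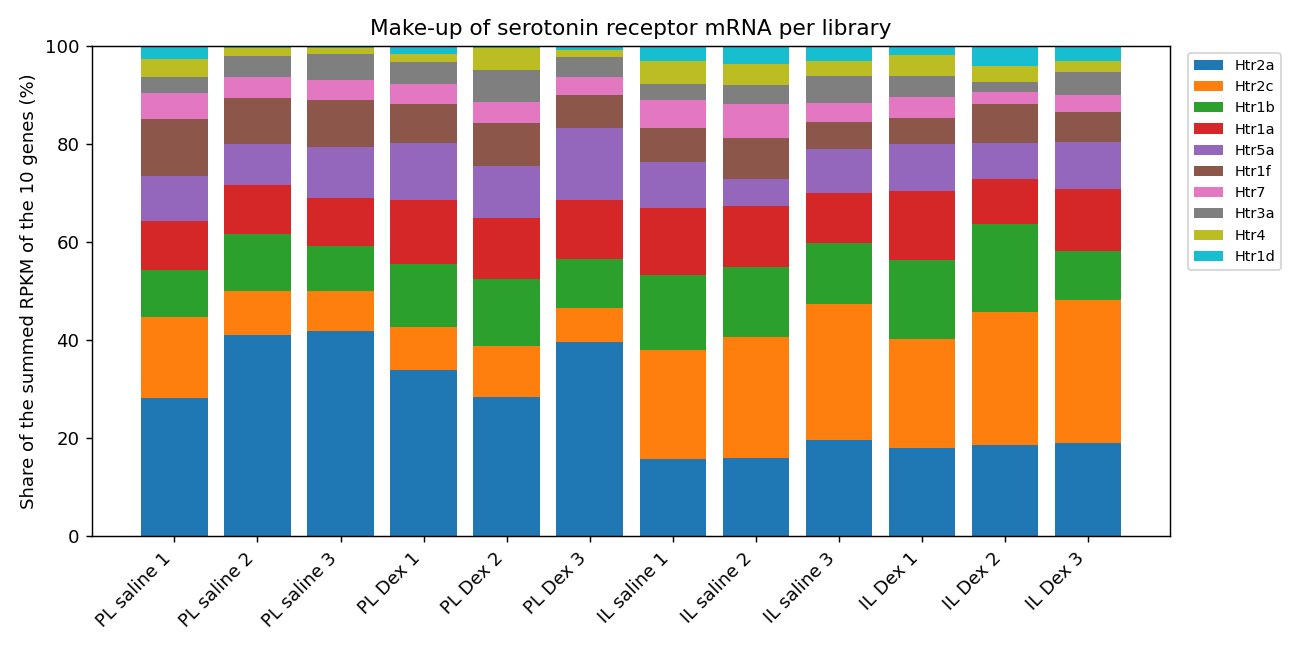
Share of the summed RPKM of the 10 serotonin receptor genes (%, vertical axis) in each of the 12 libraries (horizontal axis). Htr2a takes 28.2% to 41.9% in the PL libraries and 15.9% to 19.7% in the IL libraries, while Htr2c takes 6.91% to 16.5% in PL and 22.1% to 29.3% in IL.

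Htr2a (ENSMUSG00000034997, chr14:74640840-74709494, plus strand, GRCm38) encodes the 5-HT2A receptor, the target of classical hallucinogens. The 250 bases before its RefSeq start are shown because Htr2a and Htr2c, both Gq/11-coupled, differed in opposite directions between the regions. Both sequences are from RefSeq on GRCm38.p6, plus strand, 5′ to 3′, at chr14:74640624-74640873 for Htr2a and chrX:146962263-146962512 for Htr2c, with matches to the motifs searched in capitals.
Htr2a: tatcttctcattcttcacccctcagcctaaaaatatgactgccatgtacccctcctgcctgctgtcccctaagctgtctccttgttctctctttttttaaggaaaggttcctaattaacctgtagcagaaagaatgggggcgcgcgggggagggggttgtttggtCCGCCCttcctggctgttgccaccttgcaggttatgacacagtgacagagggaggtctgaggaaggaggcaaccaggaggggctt
Htr2c: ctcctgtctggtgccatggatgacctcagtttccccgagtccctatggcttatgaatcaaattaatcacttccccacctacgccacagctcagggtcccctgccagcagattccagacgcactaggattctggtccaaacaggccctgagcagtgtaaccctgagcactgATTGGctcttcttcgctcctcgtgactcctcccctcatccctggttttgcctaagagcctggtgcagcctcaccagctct
The search covered both strands for the letters TATAAA of the TATA box, the letters CCAAT of the box of that name, the letters GGGCGG of the GC box, the letters TGACGTCA of the cAMP response element and the letters CACGTG of the E-box. The Htr2a window held 1 GC box, read as CCGCCC on the strand shown, and 4 CpG dinucleotides at a GC content of 52.8%. The Htr2c window held 1 CCAAT box, read as ATTGG, and 5 CpG dinucleotides at 55.6% GC. A GC box was found in 32.74% and a CCAAT box in 33.85% of 32851 promoter windows of the same length, so neither match set these genes apart. A match is a description of letters and not evidence of binding.

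In saline-treated mice, 3 of the 10 genes differed between PL and IL at an adjusted p under 0.05 (edgeR quasi-likelihood test, Benjamini-Hochberg over all genes tested): Htr2a and Htr1f were higher in PL and Htr2c was lower. Of all genes tested, 18.7% passed in this comparison, 9.97% higher and 8.70% lower, so a count of this size over 10 genes is not particular to the family. At an unadjusted p under 0.05, 4 of the 10 passed, against 32.6%. The groups did not overlap for 4 of the 10 genes, 2 higher and 2 lower in PL, against 40.3% of all genes, 20.1% higher and 20.2% lower. The median log2 difference of the 10 genes was -0.11, against -0.02 over all genes. After Dex, 2 of the 10 genes passed, Htr2a higher and Htr2c lower in PL, against 7.34% of all genes, 3.80% higher and 3.54% lower. At an unadjusted p under 0.05, 4 of the 10 passed, against 19.8%. The groups did not overlap for 3 of the 10 genes, 1 higher and 2 lower in PL, against 21.6% of all genes and 10.8% in either direction alone, and the median of the 10 genes was -0.02, against -0.01 over all genes. The 2 lower genes without overlap after Dex were Htr2c and Htr1d, and Htr1d passed the filter on low counts only through its IL levels. The 2 regional comparisons use different libraries.

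Htr2a was measured at 72.9, 101 and 108 CPM in PL saline 1, 2 and 3 and at 32.7, 37.2 and 47.2 CPM in IL saline. Every PL saline library was above every IL saline library. The level was 2.41-fold higher in PL (log2 1.27, SE 0.20, 95% interval 0.83 to 1.70, adjusted p = 0.00081). The call held under all 20 alternatives, with log2 differences of 1.08 to 1.43. After Dex, Htr2a was at 66.9, 55.0 and 101 CPM in PL and at 39.4, 45.6 and 49.5 CPM in IL. The groups again did not overlap, although PL Dex 2 lay close to IL Dex 3. The level was 1.65-fold higher in PL (log2 0.72, SE 0.21, 95% interval 0.28 to 1.17, adjusted p = 0.0486). That call held under 12 of 20 alternatives. It was lost with GC correction (adjusted p = 0.0791) and without any one of PL saline 2, PL Dex 1, PL Dex 3, IL saline 2 or the 3 IL Dex libraries, with adjusted p of 0.0632 to 0.183. Without PL Dex 3 the log2 difference was 0.45. Without PL saline 1, PL Dex 1 and PL Dex 2 together it was 1.17, with PL Dex 3 as the only PL Dex library.

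Htr2c (ENSMUSG00000041380, chrX:146962513-147197277, plus strand) encodes the 5-HT2C receptor, whose transcript is edited in neurons. It was measured at 71.1, 36.8 and 35.1 CPM in PL saline and at 75.8, 94.6 and 110 CPM in IL saline. The groups did not overlap, but PL saline 1 came close to IL saline 1. This library also had the highest striatal marker sum of the PL libraries, 880 CPM against 291 to 502 CPM in the other 5. Every IL library was above every PL library in both the marker sum and Htr2c. Within a region, the orders of the sum and of Htr2c differed in some libraries. PL Dex 3 had the lowest sum, 291 CPM, and 29.1 CPM of Htr2c. PL Dex 1, next highest in PL at 502 CPM, had the lowest Htr2c level of all libraries, 28.7 CPM. IL Dex 3 had the lowest sum in IL, 1266 CPM, and the highest Htr2c level, 127 CPM. IL Dex 2 had the highest sum, 1986 CPM, and 111 CPM of Htr2c. Whether the marker sum and Htr2c are linked was not tested. Htr2c was 1.98-fold lower in PL (log2 -0.99, SE 0.25, 95% interval -1.54 to -0.43, adjusted p = 0.0188). The call held under 14 of 20 alternatives. The adjusted p was 0.0919 with only the groups compared, 0.055 with GC correction and the replicate block, and 0.0572 to 0.0773 when PL saline 2, PL saline 3, IL saline 2 or IL saline 3 was left out. Without PL saline 1 the log2 difference was -1.38 (adjusted p = 6.34e-05).

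After Dex, Htr2c was at 28.7, 34.0 and 29.1 CPM in PL and at 80.4, 111 and 127 CPM in IL. All IL Dex libraries were far above all PL Dex libraries. The level was 3.48-fold lower in PL (log2 -1.80, SE 0.26, 95% interval -2.38 to -1.22, adjusted p = 0.00144), and the call held under all 20 alternatives, with log2 differences of -1.96 to -1.65. The 8 small RNA genes annotated inside Htr2c shared no exon bases with it.

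**Figure D2:**
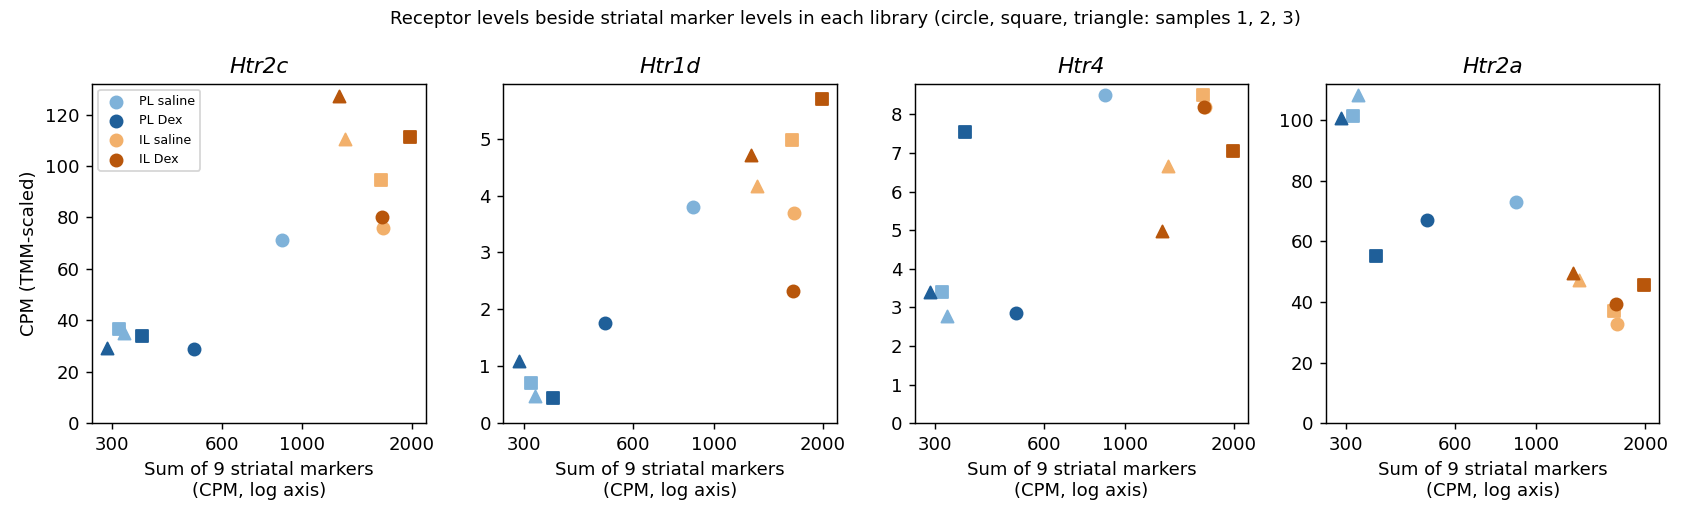
Levels of receptor genes (CPM, vertical axes) against the summed level of 9 striatal marker genes (CPM, log axis) in each of the 12 libraries, coloured by group, with the marker shape for the sample number. The IL libraries, at 1266 to 1986 CPM of striatal markers, lie apart from the PL libraries at 291 to 880 CPM, and PL saline 1 is the PL library with the highest sum.

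Among the Gi/o-coupled members, Htr1a (ENSMUSG00000021721, chr13:105443639-105448122, plus strand) encodes the 5-HT1A receptor, which inhibits both raphe neurons and their cortical targets. It was the most even of the 10 genes, at 20.0 ± 0.470 CPM in PL saline, 21.4 ± 2.66 in PL Dex, 21.8 ± 1.83 in IL saline and 23.0 ± 4.41 in IL Dex (n = 3 each). The groups overlapped in all 4 comparisons. The 95% intervals of its log2 difference between PL and IL ran from -0.44 to 0.20 after saline and from -0.44 to 0.22 after Dex.

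Htr1b (ENSMUSG00000049511, chr9:81628291-81633828, minus strand) encodes a receptor known from axon terminals, where it limits transmitter release. It was at 20.8, 24.1 and 20.1 CPM in PL saline and at 26.5, 27.9 and 25.1 CPM in IL saline. The groups did not overlap, with PL lower, but the log2 difference of -0.29 (SE 0.16, 95% interval -0.63 to 0.05) did not pass (adjusted p = 0.223). After Dex it was at 21.2, 22.2 and 21.4 CPM in PL and at 29.8, 37.1 and 21.7 CPM in IL, where IL Dex 3 was level with the PL libraries. The log2 difference there was -0.44 (SE 0.17, adjusted p = 0.129), and without IL Dex 3 it was -0.63 (adjusted p = 0.0212). That was the only 1 of 20 alternatives under which it passed. Htr1b shares 852 of its 4724 exon bases with D430036J16Rik, an antisense gene with 539 counts over the 12 libraries. The counting command in the file header has no strand option, so reads within the shared bases cannot be told apart by strand. Their effect on the Htr1b count was not tested.

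Htr1d (ENSMUSG00000070687, chr4:136423524-136444398, plus strand), a close relative of Htr1b, was at 3.80, 0.703 and 0.483 CPM in PL saline, from 25, 6 and 4 counts. In IL saline it was at 3.69, 4.98 and 4.17 CPM. PL saline 1 was thus within the range of IL, and the other 2 PL saline libraries were far below it. The log2 difference was -1.45 (SE 0.54, 95% interval -2.59 to -0.31, adjusted p = 0.07). Without PL saline 1 it was -2.83 (adjusted p = 0.00148). The difference after saline passed under 3 of 20 alternatives. After Dex, Htr1d was at 1.77, 0.435 and 1.08 CPM in PL, from 13, 3 and 8 counts, and at 2.32, 5.70 and 4.70 CPM in IL. The groups did not overlap, and the log2 difference was -1.95 (SE 0.59, 95% interval -3.19 to -0.70). It narrowly missed the threshold (adjusted p = 0.0546) and passed under 8 of 20 alternatives, DESeq2 among them (adjusted p = 0.0252). With only the PL groups fitted, Htr1d did not pass the filter on low counts, so it was tested through its IL levels. Its regional differences are therefore only a description.

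Htr1f (ENSMUSG00000050783, chr16:64924729-65105854, minus strand) encodes the 5-HT1F receptor, a target of migraine drugs. It was at 13.8, 10.7 and 11.4 CPM in PL saline and at 6.66, 8.99 and 6.13 CPM in IL saline. Each PL saline library was above each IL saline library. The level was 1.64-fold higher in PL (log2 0.71, SE 0.21, 95% interval 0.27 to 1.15, adjusted p = 0.0244). The call held under 14 of 20 alternatives. It was lost with GC correction, where the log2 difference was 0.47 (adjusted p = 0.153), and with GC correction and the replicate block (adjusted p = 0.122). It was also lost without PL saline 1, IL saline 1 or IL saline 3, with adjusted p of 0.0858 to 0.115, and without PL saline 1, PL Dex 1 and PL Dex 2 together (adjusted p = 0.0819). The GC content of Htr1f was 39.4%, the lowest of the 10 genes. After Dex it was at 7.07, 7.69 and 7.86 CPM in PL and at 5.35, 8.85 and 7.29 CPM in IL, with overlapping groups and a log2 difference of 0.06 (95% interval -0.42 to 0.55).

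Htr5a (ENSMUSG00000039106, chr5:27842149-27855088, plus strand) encodes the 5-HT5A receptor. It was at 22.8, 19.9 and 26.1 CPM in PL saline and at 18.4, 12.4 and 20.5 CPM in IL saline. The groups overlapped by PL saline 2 and IL saline 3, and the log2 difference was 0.42 (SE 0.21, 95% interval -0.02 to 0.87, adjusted p = 0.178). With the batch as a replicate block it was 0.44 and passed (adjusted p = 0.0389), the only 1 of 20 alternatives under which it did. After Dex, PL Dex 3 stood high at 35.5 CPM, the other PL Dex libraries were at 21.9 and 20.0 CPM, and the IL Dex libraries were at 20.1, 17.3 and 24.0 CPM. The log2 difference was 0.33 (95% interval -0.13 to 0.78).

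Of the Gs-coupled members, Htr4 (ENSMUSG00000026322) was at 8.50, 3.40 and 2.78 CPM in PL saline and at 8.19, 8.51 and 6.67 CPM in IL saline. PL saline 1 again lay with the IL libraries. The log2 difference was -0.70 (SE 0.37, 95% interval -1.48 to 0.08, adjusted p = 0.202), and without PL saline 1 it was -1.33 (adjusted p = 0.0182). It passed under 2 of 20 alternatives. After Dex, Htr4 was at 2.86, 7.55 and 3.39 CPM in PL and at 8.20, 7.05 and 4.98 CPM in IL, with PL Dex 2 inside the range of IL. The log2 difference there was -0.53 (95% interval -1.36 to 0.30).

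Htr7 (ENSMUSG00000024798, chr19:35958734-36057507, minus strand) encodes a receptor linked to circadian timing and mood. In PL it was at 8.50, 6.21 and 6.28 CPM after saline and at 5.03, 5.08 and 5.69 CPM after Dex. In IL it was at 7.11, 9.55 and 5.59 CPM after saline and at 5.70, 3.60 and 5.63 CPM after Dex. The regions overlapped under both treatments. Their log2 differences were -0.09 after saline (95% interval -0.60 to 0.42) and 0.08 after Dex (95% interval -0.49 to 0.64).

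The channel subunit gene Htr3a (ENSMUSG00000032269, chr9:48899213-48911099, minus strand) marks a class of cortical interneurons. Its mean was 4.07 ± 1.08 CPM in PL saline, 3.95 ± 0.774 in PL Dex, 3.60 ± 1.19 in IL saline and 3.29 ± 1.29 in IL Dex (n = 3 each). The groups overlapped in all comparisons, and the intervals of the log2 difference between regions were wide, at -0.51 to 0.85 after saline and -0.50 to 0.96 after Dex, on 13 to 82 counts a library.

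**Figure D3:**
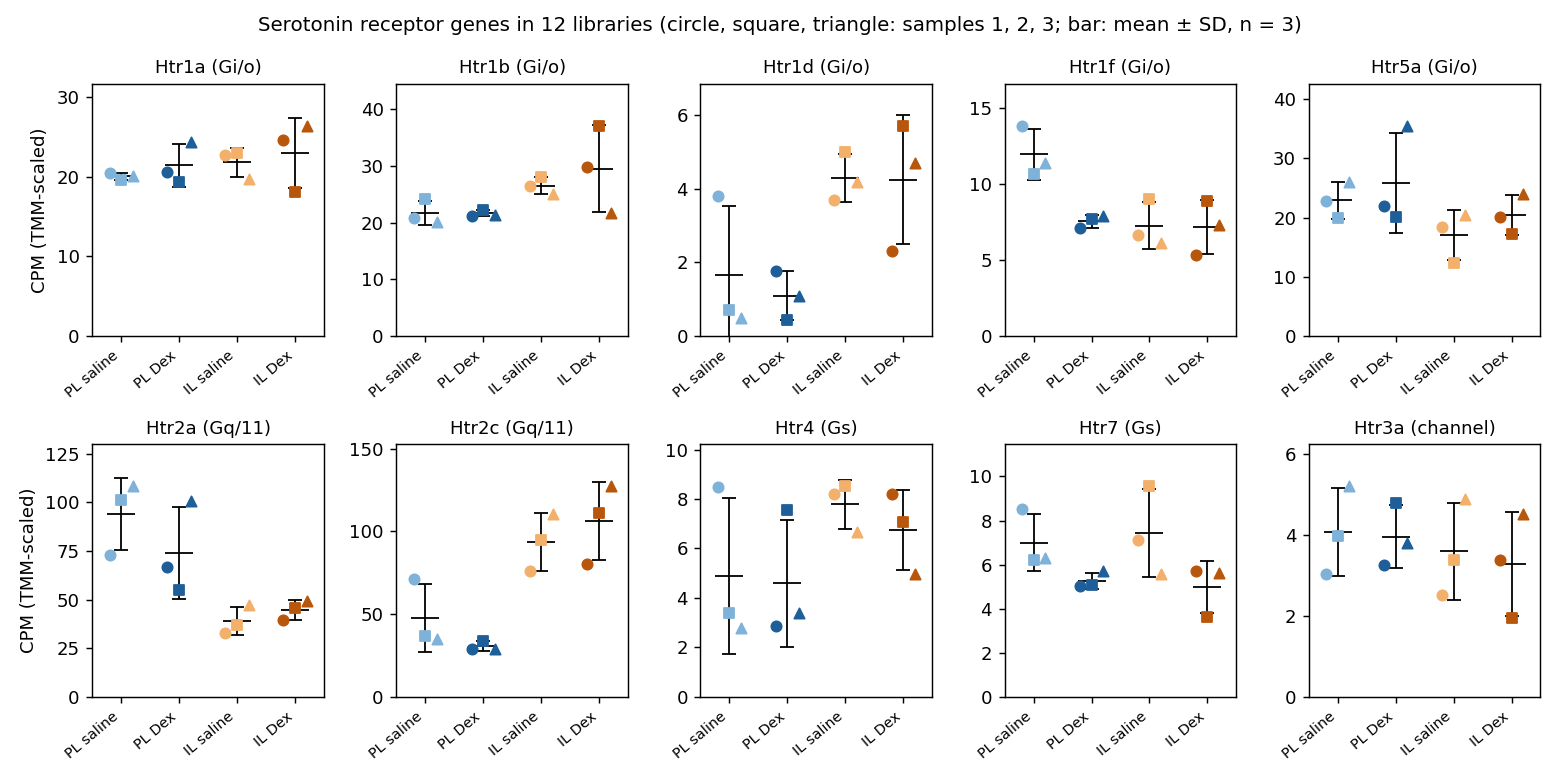
Level of each of the 10 genes (CPM on TMM-scaled library sizes, vertical axes starting at 0) in the 4 groups, with a point for each library and bars for the mean ± SD (n = 3); the lower end of the Htr1d bar in PL saline is clipped at 0. Htr2a is higher in PL than in IL, Htr2c is lower, and PL saline 1 is the highest PL saline library for Htr2c, Htr1d, Htr4, Htr1f, Htr7 and Htr1a.

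Dex against saline gave no call among the 10 genes in either region. In PL, 0 of 10 passed, against 0.02% of all genes (4 of 20015), and 2 of 10 had an unadjusted p under 0.05, against 13.9%. DESeq2 called 140 genes in this comparison and none of the 10. The median log2 difference of the 10 genes was -0.20, against -0.00246 over all genes. The 3 genes whose groups did not overlap, Htr1f, Htr2c and Htr7, all had lower values after Dex, against 6.82% of all genes not overlapping in that direction, 7.57% in the other and 14.4% in both. In IL, 0 of 10 passed, against 0% of all genes, also with DESeq2. There 1 of 10 had an unadjusted p under 0.05, against 1.06%, no gene had groups that did not overlap, against 7.78% (3.80% higher and 3.98% lower), and the median was 0.04, against 0.00627.

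The Htr1f values given above put all 3 PL Dex libraries below the lowest PL saline library. The log2 difference was -0.66 (SE 0.22, 95% interval -1.12 to -0.19), with an unadjusted p of 0.00776 and an adjusted p of 0.234. With GC correction it was -0.39. For Htr2c the log2 difference between PL Dex and PL saline was -0.63 (SE 0.27, 95% interval -1.21 to -0.05, adjusted p = 0.327), and without PL saline 1 it was -0.23. For Htr7 it was -0.40 in PL (95% interval -0.95 to 0.15, adjusted p = 0.503) and -0.56 in IL (95% interval -1.10 to -0.03), the latter with an unadjusted p of 0.0383 and an adjusted p of 1.00. The slope of log2 level on GC content, in log2 units per 10 percentage points, was -0.258, -0.316 and -0.0767 in PL saline and 0.124, 0.102 and -0.0694 in PL Dex. Of Htr1f, Htr2c and Htr7, only Htr1f has a GC-corrected PL value given here. Over 20 alternatives, the PL log2 difference ranged from -0.80 to -0.23 for Htr2c and from -0.48 to -0.12 for Htr7. The part of GC content in these differences was not tested beyond the corrected value given.

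The mean level of Htr2a in PL was 94.1 ± 18.7 CPM after saline and 74.2 ± 23.6 CPM after Dex (n = 3 each). The groups overlapped, as PL Dex 3 at 101 CPM lay among the saline libraries. The log2 difference was -0.34 (95% interval -0.78 to 0.09, adjusted p = 0.459). Without PL Dex 3 it was -0.62 (adjusted p = 0.0445), a fit in which 1484 of all genes passed, against 4 with that library, so the call is not particular to Htr2a. Without PL saline 1, PL Dex 1 and PL Dex 2 it was -0.05, with PL Dex 3 as the only PL Dex library. In IL the log2 difference was 0.20 (95% interval -0.24 to 0.65). For the other genes the 95% intervals in PL were -0.23 to 0.43 for Htr1a, -0.35 to 0.35 for Htr1b, -0.28 to 0.63 for Htr5a, -0.77 to 0.66 for Htr3a, -0.91 to 0.79 for Htr4 and -1.89 to 0.91 for Htr1d.

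The interaction asks whether the Dex difference itself differed between PL and IL. None of the 10 genes passed, against 0% of all genes, and 1 of 10 had an unadjusted p under 0.05, against 6.73%. DESeq2 also called none. The lowest p was that of Htr2c, whose Dex difference was lower in PL than in IL by a log2 value of -0.81 (SE 0.36, 95% interval -1.61 to -0.02, unadjusted p = 0.0443, adjusted p = 0.716). With 1 library left out at a time, the Htr2c value ranged from -0.99 to -0.41. The interaction was -0.65 for Htr1f (95% interval -1.30 to 0.01) and -0.55 for Htr2a (95% interval -1.17 to 0.07).

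**Figure D4:**
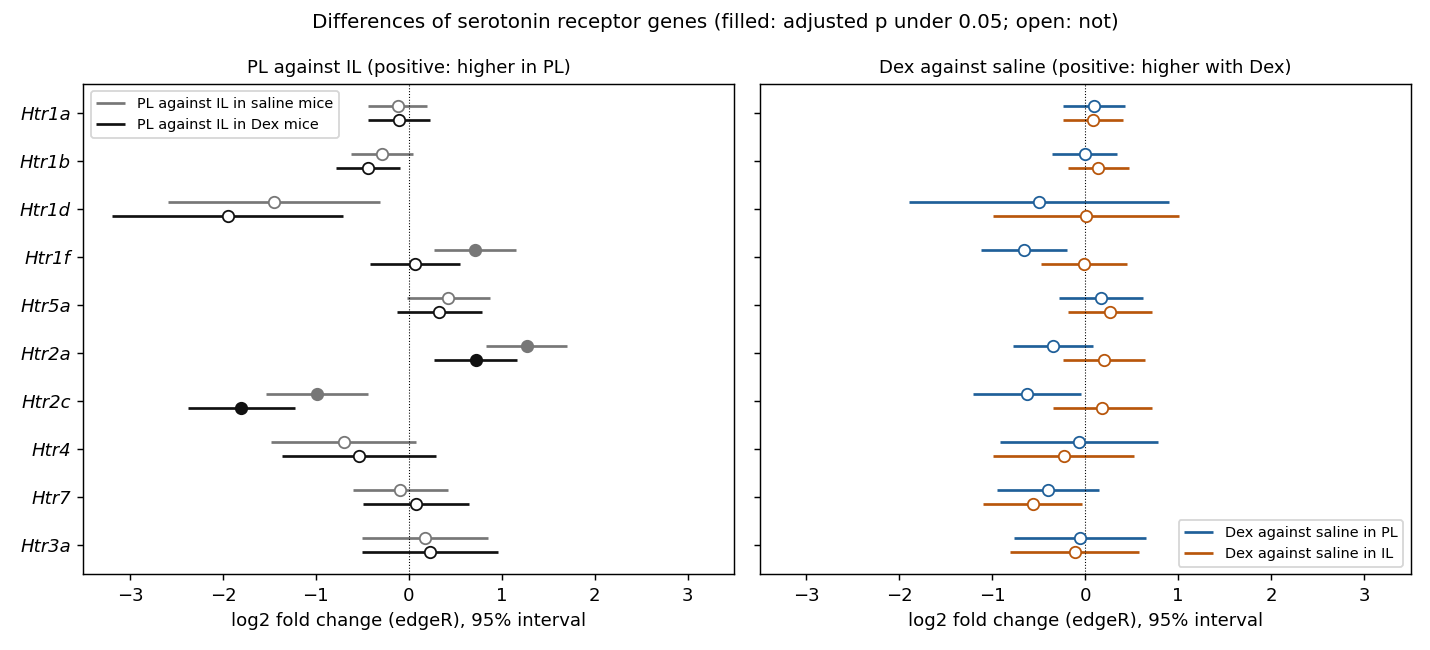
Log2 fold changes (horizontal axes, edgeR) of the 10 genes with 95% intervals, for Dex against saline in each region and for PL against IL under each treatment; filled points have an adjusted p under 0.05. The filled points are Htr2a, Htr2c and Htr1f in the saline regional comparison and Htr2a and Htr2c in the Dex one.

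Other genes of the pathway were read from lists by function. Of the other serotonin receptor genes, Htr3b, the partner subunit of Htr3a, had 0 counts in all 12 libraries. Htr5b passed in the regional comparison after saline, at 0.539 ± 0.278 CPM in PL and 2.00 ± 0.557 CPM in IL (n = 3 each; log2 -1.85, SE 0.52, adjusted p = 0.0168). The Htr5b call rests on few counts in PL, with the lowest library at 0.304 CPM, and is only a description. After Dex Htr5b did not pass (log2 -1.30, SE 0.50, adjusted p = 0.131). Htr2b and Htr6 had group means of 4.17 to 6.19 CPM, and neither passed in any comparison. Of 11 tested genes of serotonin synthesis, transport and breakdown, 1 passed in PL against IL after saline, where 18.7% of all genes passed. This was Maoa, which breaks serotonin down and was higher in PL (log2 0.55, SE 0.16, adjusted p = 0.0186). After Dex its log2 difference was 0.37 (adjusted p = 0.197). The 5 genes listed for serotonin neurons summed to 13.5 to 24.3 CPM. Most of that came from Slc18a2, the vesicular monoamine transporter gene, with group means of 11.5 to 14.8 CPM, and from Ddc, a decarboxylase gene of monoamine synthesis, at 4.86 to 5.52 CPM. Tph2, the serotonin-synthesising hydroxylase gene of neurons, reached at most 0.476 CPM. The serotonin transporter gene Slc6a4 had 0 counts in 10 of 12 libraries, and the transcription factor gene Fev had 0 in 8.

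Of 30 genes for G proteins and effectors, 14 were higher and 3 lower in PL after saline, against 9.97% and 8.70% of all genes, with a median log2 difference of 0.33 against -0.02. After Dex, 7 were higher and 3 lower, against 3.80% and 3.54%, with a median of 0.16 against -0.01. The adenylyl cyclase gene Adcy1 was higher in PL in both comparisons (log2 0.65 and 0.91, adjusted p = 0.000688 and 7.54e-05), as was Adcy2 (log2 0.57 and 0.62). The protein kinase C gene Prkcb was also higher (log2 0.50 and 0.39). Adcy5, the main adenylyl cyclase of the striatum, was lower in PL (log2 -1.51 and -1.47, adjusted p = 5.89e-05 and 0.000115), as was Gnal, which encodes a stimulatory G protein subunit of striatal neurons (log2 -0.79 and -1.01). The third lower gene was Plcb3 after saline and Prkca after Dex, both named after their values were seen. Of 15 genes for receptor partners, trafficking and RNA editing, 2 passed after saline, against 18.7% of all genes, Ywhaz among them (log2 0.48), and none after Dex, against 7.34%. No gene of the 4 lists passed for Dex against saline in PL or IL or for the interaction.

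The genes whose levels followed each receptor most closely were ranked by Pearson's r of log2 CPM over the 12 libraries among 11505 protein-coding genes. These values describe the libraries, which share region, batch and depth, and carry no p. Htr2a was nearest to Cltc (r = 0.979), Stmn2 (0.976) and Stmn1 (0.975). Htr2c was nearest to Ndst4 (0.985), Doc2b (0.979) and Tac1 (0.977), and Htr1d to Trps1 (0.966), Strip2 (0.958) and Inpp5f (0.958). Within the family, Htr2c and Htr1d had an r of 0.872 and Htr2a and Htr2c an r of -0.724. The highest r for Htr7 was 0.798, with Taf1a.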

How the data were processed

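Raw gene counts of 12 polyadenylated RNA libraries were used as deposited by the authors. Per the file headers, the authors counted reads with featureCounts 2.0.1 on the GRCm38 Ensembl 98 annotation. The submitters' processing notes name bcl2fastq, Trim Galore, HISAT2, SAMtools 1.8 and the build mm39, which differs from that header. Coordinates are those of GRCm38: 99.47% of 55154 genes shared with GENCODE M21 have the same start and end. The counting command in that header sets no strand option. Another 12 count columns matched no sample and were not used.

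Groups followed the sample titles. edgeR 4.0.16 (R 4.3.3; filterByExpr, TMM, robust quasi-likelihood test, two-sided) was fitted to all 4 groups with 8 residual degrees of freedom, and p-values were adjusted by Benjamini-Hochberg over 20015 genes at a threshold of 0.05. CPM used TMM-scaled library sizes and RPKM the deposited gene lengths. The fit was also run on simulated counts with the same spread for every gene and no GC or batch differences. That run does not show how the fit behaves with such differences. Alternatives were DESeq2 1.42.0, its size factors in edgeR, no filter, only the groups compared, GC correction (a spline with 5 degrees of freedom per library), the batch as a replicate block, both together, and each library left out. Leaving out PL saline 1, PL Dex 1 and PL Dex 2 together was added after seeing the data.

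The sample number equals the batch in the labels, so numbers pair samples by the labels. Deviations from group means of same-numbered samples correlated at 0.284 to 0.337 between IL saline and IL Dex, at 0.0086 to 0.108 between PL saline and PL Dex, at 0.0265 to 0.191 between PL saline and IL saline and at -0.0933 to 0.0377 between PL Dex and IL Dex. For samples of different number, the values were -0.202 to -0.105 between IL saline and IL Dex and -0.133 to 0.0711 between PL saline and PL Dex. They were -0.124 to 0.0547 between PL saline and IL saline and -0.0708 to 0.099 between PL Dex and IL Dex. Deviations cancel out within each group, so the values for different numbers are not independent of those for the same number. The main fit did not include the batch, which was used only in the replicate block. No 2 libraries were identical. All 10 receptor genes are named. In the other lists, up to 4 genes past the threshold per comparison are named, smallest p first (1 such gene is not reported here), and for likeness up to 3 genes of at least 5 CPM per receptor. The members and lists were chosen with earlier results of these data known. RefSeq promoter windows matched 8 of the 10 genes.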

Additional observations from a re-analysis of the deposited data

How the results depend on the processing

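The number of the 10 genes past the threshold for PL against IL after saline, 3, was 1 with GC correction and the replicate block and 1 to 4 with 1 library left out. After Dex, 2 became 1 with GC correction and 1 to 3 with 1 library left out. For Dex against saline in PL, 0 became 0 to 1 with 1 library left out, the 1 being Htr2a without PL Dex 3, where 1484 of all genes passed. In IL and for the interaction the count was 0 under every alternative run. With the replicate block alone the counts were 4 after saline and 2 after Dex for PL against IL, and 0 otherwise, and the call it changed was that of Htr5a. The all-gene count for Dex against saline in PL, 4, was 140 with DESeq2, 193 with no filter, 0 with only the groups compared and 1 with GC correction. Without PL Dex 3 it was 1484 (591 higher and 893 lower), and the all-gene count for the interaction went from 0 to 144; without any other single library these counts were 0 to 8 and 0. For PL against IL the all-gene count was 1842 to 4649 after saline and 783 to 1728 after Dex with 1 library left out. No called log2 difference changed direction. The sign changes below concern values that did not pass, and their cause was not tested. Htr1b for Dex against saline in PL was 0.0037 with the DESeq2 size factors, 0.0031 with DESeq2, 0.0026 with no filter, 0.0027 with the replicate block, 0.017 with only the groups compared, 0.094 with GC correction and 0.098 with GC correction and the replicate block. With GC correction, alone and with the replicate block, Htr4 in PL was 0.049 and 0.073, Htr1f in IL was 0.0021 and 0.0051, and the interaction of Htr3a was -0.11 and -0.064. GC correction gave an interaction of -0.00095 for Htr1a, and no filter gave -0.0067 for Htr1d in IL. Without PL saline 1, PL Dex 1 and PL Dex 2, an alternative chosen after seeing the data, PL Dex 3 was the only PL Dex library. In that fit, Dex against saline in PL was 0.86 for Htr1d and 0.14 for Htr4. Its interaction values were 0.86 for Htr1d, 0.36 for Htr5a and -0.15 for Htr3a, and PL against IL after Dex was 0.090 for Htr1a. With 1 library left out at a time, the sign changed for the following values. The ranges for Dex against saline in PL were -0.00050 to 0.18 for Htr1a, -0.053 to 0.082 for Htr1b, -1.01 to 0.89 for Htr1d, -0.21 to 0.16 for Htr3a, -0.60 to 0.57 for Htr4, -0.12 to 0.33 for Htr5a. The ranges for Dex against saline in IL were -0.040 to 0.23 for Htr1a, -0.061 to 0.34 for Htr1b, -0.23 to 0.27 for Htr1d, -0.17 to 0.18 for Htr1f, -0.47 to 0.18 for Htr3a. The ranges for PL against IL after saline were -0.042 to 0.46 for Htr3a, -0.26 to 0.14 for Htr7. The ranges for PL against IL after Dex were -0.25 to 0.016 for Htr1a, -0.086 to 0.23 for Htr1f, -0.028 to 0.58 for Htr3a, -0.10 to 0.20 for Htr7. The ranges for the interaction were -0.13 to 0.14 for Htr1a, -0.34 to 0.057 for Htr1b, -1.01 to 0.88 for Htr1d, -0.23 to 0.41 for Htr3a, -0.37 to 0.80 for Htr4, -0.39 to 0.091 for Htr5a, -0.063 to 0.34 for Htr7. For Dex against saline in PL, Htr1d had no value with DESeq2 and with only the groups compared, where it did not pass the filter on low counts, and Htr3a had none with DESeq2. The interaction could not be fitted with only the groups compared. Htr1d, with as few as 3 counts in a library, had the widest intervals of the 10 genes.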
